A study of Populus x canadensis with 12 samples.

Results

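Secondary wall cellulose synthases were followed as transcripts in leaves of drought-stressed hybrid poplar. They were 5 genes, the poplar loci listed as CesA4, CesA7A, CesA7B, CesA8A and CesA8B, picked out by locus ID, with no threshold on a measured value. The list itself was drawn up with earlier results of these data known. All 5 were found among the 41335 gene IDs of the deposited table, and all 5 were among the 24117 genes with at least 1 RPKM (reads per kilobase of gene model, scaled to library size) in at least 4 libraries, which were the genes tested.

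Cellulose is spun at the plasma membrane by rosette-shaped complexes of cellulose synthase (CesA) subunits. In Arabidopsis, the thick secondary walls of xylem vessels and fibres need the classes CESA4, CESA7 and CESA8 together, and mutants in any of them have collapsed, irregular xylem. Primary walls of growing cells are made by complexes of other CesA classes. Poplar carries a pair of gene copies for class 7 and another pair for class 8, and in a leaf the walls made by these subunits lie mainly in the xylem and fibres of the veins.

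CesA4 is Potri.002G257900.1, with chromosome number 2 in its ID and a coding length of 3129 bp. The class 7 copies are CesA7A (Potri.006G181900.1, chromosome number 6, 3111 bp) and CesA7B (Potri.018G103900.1, chromosome number 18, 2214 bp). The class 8 copies are CesA8A (Potri.011G069600.1, chromosome number 11, 2937 bp) and CesA8B (Potri.004G059600.1, chromosome number 4, 3045 bp). Chromosome numbers are those written in the IDs, and coding lengths were recovered from the deposited values. The CesA7B gene model was the shortest of the 5. The deposited values do not show how reads shared by the copies of a class were counted, so the split between CesA7A and CesA7B, and between CesA8A and CesA8B, carries that uncertainty.

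The leaves came from 12 single greenhouse plants, rooted cuttings of crosses between a Populus deltoides mother and a Populus nigra father, 50 to 70 cm tall when watering was changed. Each of 2 hybrids, 85 and 89, gave 2 plants in each of 3 stages, which are abbreviated C for controls watered normally, D1 for the moderate and D2 for the severe drought. Water was withheld for 8 or 13 days, and no label ties either period to a stage. Each library carries its own clone number, so replicates are taken as separate plants. Whole-leaf RNA was measured, in which fewer xylem cells and less transcript per cell cannot be told apart. Control libraries held 2534325 to 10509089 reads, those of D1 between 3181833 and 4847233, and those of D2 between 2259634 and 3931067, as recovered from the values. Leaf identity could not be checked against marker genes here, because the IDs are not paired with names.

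In leaves of watered plants, CesA4 was the most abundant of the 5 transcripts. In hybrid 85 it had 56.7 RPKM in replicate 1 and 17.1 in replicate 2, and in hybrid 89 it had 104 and 55.1 RPKM. Its mean over the stage was 58.2 ± 35.5 RPKM (SD, n = 4). Within each of these libraries CesA4 was above 68.8% to 94.5% of the genes tested.

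CesA8B, a class 8 subunit, came next in all 4 control libraries, with 35.7 and 10.2 RPKM in hybrid 85 and 60 and 34.7 RPKM in hybrid 89. CesA8A, its copy, had 14.7, 6.04, 33.2 and 16.9 RPKM in the same order. CesA8B was therefore above CesA8A in every control leaf.

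The class 7 copies were close to each other. CesA7A had 21.7, 4.49, 48.1 and 22.2 RPKM in the control libraries, and CesA7B had 21.7, 7.68, 35.7 and 20.5 RPKM in the same order. Neither was above the other in all 4.

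Control plants differed widely in level, while the share of CesA4 among the 5 transcripts varied little. Replicate 1 was higher than replicate 2 for 5 of 5 genes in both hybrids, by 2.43- to 4.83-fold in hybrid 85 and by 1.73- to 2.17-fold in hybrid 89. It was also the deeper library in each, with 10509089 against 2647763 reads in hybrid 85 and 6138710 against 2534325 in hybrid 89. The sum of the 5 transcripts was 151 and 45.5 RPKM in hybrid 85 and 281 and 149 RPKM in hybrid 89. The share of CesA4 in that sum lay between 36.9% and 37.7% in all 4 libraries. The share of CesA8B was 21.4% to 23.7%, and that of CesA8A was 9.77% to 13.3%. The class 7 shares varied too, from 9.87% to 17.1% for CesA7A and from 12.7% to 16.9% for CesA7B. CesA7A was the lowest of the 5 in replicate 2 of hybrid 85, and CesA8A was the lowest in the other 3 control libraries.

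**Figure D1:**
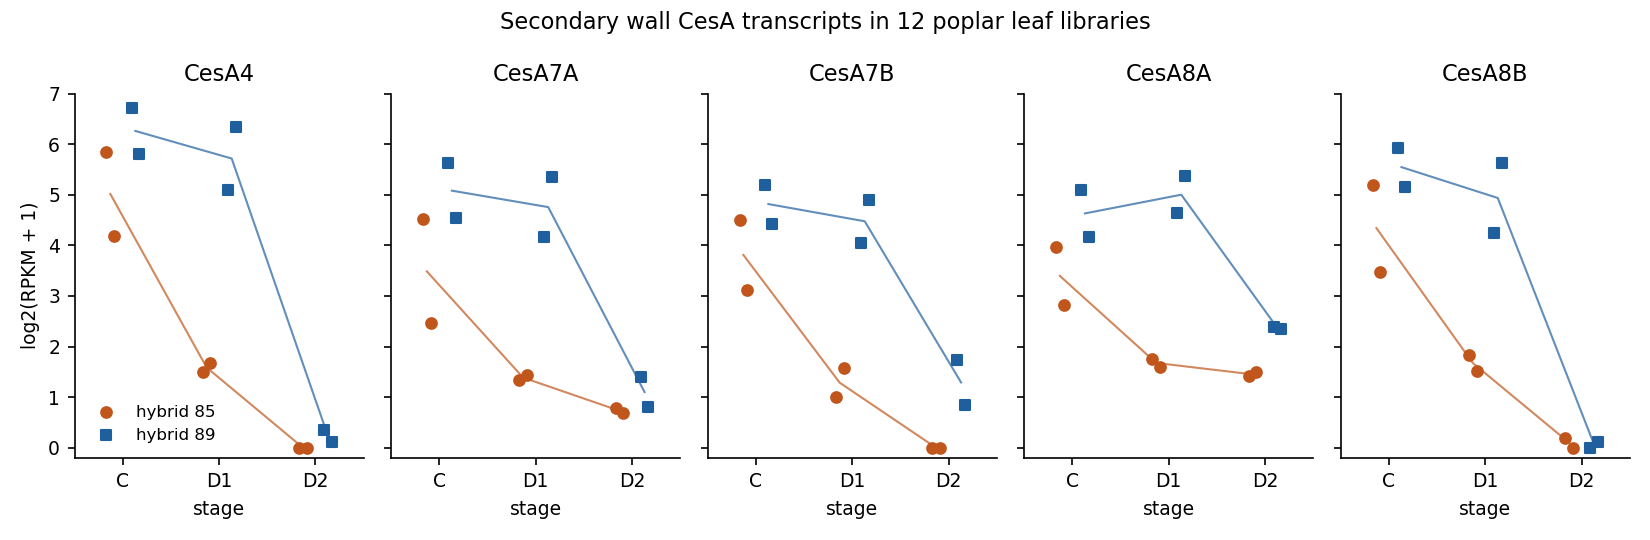
Level of each gene as log2(RPKM + 1) in each of 12 libraries by stage, with circles for hybrid 85, squares for hybrid 89 and lines through the mean of the 2 libraries of each hybrid. In D2, CesA4 and CesA8B were near the bottom of the scale, and CesA8A was the highest of the 5, at 1.41 to 2.38. The D1 libraries of hybrid 85 lay below those of hybrid 89 for every gene.

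Severe drought left almost none of the CesA4 and CesA8B transcript. In D2, CesA4 was at 0 RPKM in both libraries of hybrid 85 and at 0.272 and 0.0813 RPKM in hybrid 89, which is 0, 0, 2 and 1 reads. CesA8B had 0.145 and 0 RPKM in hybrid 85 and 0 and 0.0835 RPKM in hybrid 89, which is 1, 0, 0 and 1 reads. No D2 library reached 1 RPKM for either gene, whereas the lowest control library had 17.1 RPKM of CesA4 and 10.2 RPKM of CesA8B.

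The class 7 copies were also low. CesA7A had 0.711 and 0.603 RPKM in D2 of hybrid 85 and 1.64 and 0.736 RPKM in hybrid 89, and every D2 library held at least 5 of its reads. CesA7B was at 0 in both D2 libraries of hybrid 85 and at 2.31 and 0.804 RPKM in hybrid 89. The copies thus differed in the D2 libraries of hybrid 85, where CesA7A was read and CesA7B was not.

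CesA8A was the exception in size. It had 1.66 and 1.81 RPKM in D2 of hybrid 85 and 4.20 and 4.07 RPKM in D2 of hybrid 89, from 11, 17, 29 and 47 reads. It was the most abundant of the 5 in all 4 D2 libraries, although it was the least abundant in 3 of the 4 control libraries.

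All 5 genes were lower in D2 than in C, with D2 and C libraries that did not overlap for any of them. Among all genes tested, 17.5% had D2 below C without overlap. Relative to C, with limma on log2(RPKM + 1) and Benjamini-Hochberg adjustment over all genes tested, 5 of 5 fell, against a background of 19.2% of genes called lower. The log2 change was -5.52 ± 0.68 (SE) for CesA4 (adjusted p = 4.14e-05) and -4.86 ± 0.61 for CesA8B (adjusted p = 4.68e-05). The changes were -3.67 ± 0.49 for CesA7B (limma, adjusted p = 7.85e-05) and -3.37 ± 0.60 for CesA7A (limma, adjusted p = 0.000678). CesA8A changed by -2.11 ± 0.48 (limma, adjusted p = 0.00343). The median log2 change was -3.67 over the 5 genes and 0.07 over all genes tested.

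Because the added 1 RPKM compresses changes of low transcripts, the reads were also pooled over the 4 libraries of a stage and divided by their totals. CesA4 had 3 reads in D2 against 4437 in C, 0.126% of the control rate (95% exact counting interval 0.0259% to 0.368%). CesA8B had 2 reads against 2613, or 0.142% (0.0172% to 0.515%). Class 7 stood higher, with 32 reads against 1840 for CesA7A, or 3.23% (2.21% to 4.58%), and 19 against 1150 for CesA7B, or 3.07% (1.84% to 4.82%). CesA8A kept 104 reads against 1226, or 15.8% (12.8% to 19.3%). In hybrid 85 alone, CesA4 had 0 reads in D2 against 2007 in C, so its rate was at least 278-fold lower with a floor of 3 reads over the group. CesA7B had 0 against 550 there, at least 76.1-fold lower. Control replicate 1 of hybrid 85 gave 1865 of the 2007 reads and 505 of the 550, so both floors rest mainly on that plant. These intervals and floors cover counting error and not the spread between plants.

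The fall in D2 was present in both hybrids. In hybrid 85, limma called 5 of 5 genes lower in D2 than in C (background 13.9%), with log2 changes of -5.02 to -1.94. In hybrid 89 it also called 5 of 5 lower (background 17%), with changes of -6.03 to -2.27. The call in hybrid 85 rested on few plants: without replicate 1 of C or replicate 1 of D2 it was lost for CesA7A and CesA8A. The difference between hybrids in the D2 effect was -1.25 to 0.29 on the log2 scale and was called for 0 of 5 genes (limma, adjusted p = 0.437 to 0.865; background 0.469%). At an unadjusted p below 0.05 limma counted 4414 genes for that difference, none of the 5 among them. CesA4 and CesA8B had only 0 to 2 reads in each D2 library, so for them this test cannot show whether the hybrids fell alike. For CesA4 the difference went from -1.01 to 0.10 with 0.1 RPKM added in place of 1.

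**Figure D2:**
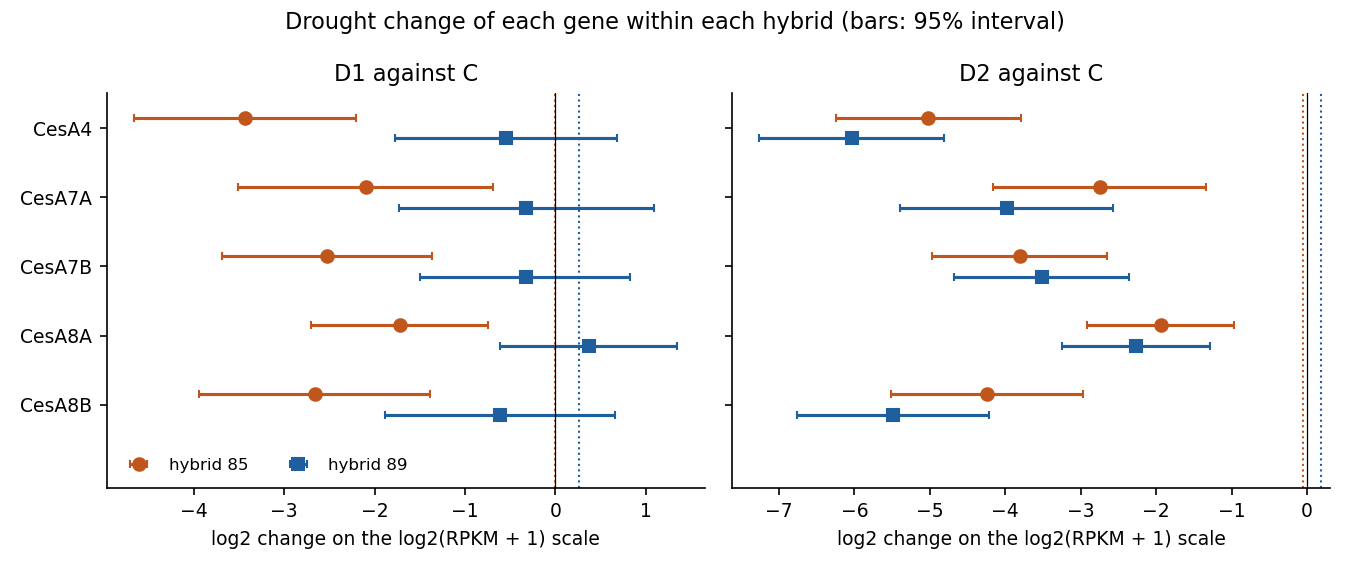
Log2 change on the log2(RPKM + 1) scale in D1 (left) and D2 (right) against C, within hybrid 85 (circles) and hybrid 89 (squares); bars are 95% intervals from limma and dotted lines the median over all genes tested. In D2 all intervals lay below 0, and in D1 those of hybrid 85 lay below 0 while those of hybrid 89 included it.

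Among plants in D1, all 5 genes were lower in hybrid 85 than in hybrid 89. The controls of hybrid 89 also had higher values, by 1 to 1.59 on the log2 scale (limma, 0 of 5 called, background 0.24%), and the difference between hybrids in the D1 effect was called for 0 of 5 genes (limma, background 0%). In D1 of hybrid 85, CesA4 had 1.81 and 2.20 RPKM, and in D1 of hybrid 89 it had 33.2 and 79.3 RPKM. CesA8B had 2.58 and 1.85 RPKM in hybrid 85 and 18 and 48.2 RPKM in hybrid 89. CesA8A had 2.35 and 2.02 RPKM in hybrid 85 and 23.7 and 40.4 RPKM in hybrid 89. The hybrid 89 libraries lay within the range of the controls of both hybrids together, apart from the higher CesA8A value, which lay above it. The hybrid 85 libraries lay below every control library. Set against the controls of hybrid 89 alone, D1 replicate 1 of that hybrid was below both for CesA4 (104 and 55.1 RPKM) and CesA8B (60 and 34.7 RPKM). Its replicate 2 lay between them for both genes. For CesA8A (33.2 and 16.9 RPKM), replicate 1 lay between them and replicate 2 above.

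The class 7 copies had the same layout. CesA7A had 1.52 and 1.71 RPKM in D1 of hybrid 85 and 16.9 and 39.9 RPKM in hybrid 89. CesA7B had 0.994 and 1.98 RPKM in hybrid 85 and 15.6 and 28.9 RPKM in hybrid 89. Replicate 1 of hybrid 89 lay below both controls of its hybrid, 48.1 and 22.2 RPKM for CesA7A and 35.7 and 20.5 for CesA7B. Replicate 2 lay between them for each gene. For 5 of 5 genes both D1 libraries of hybrid 85 were below all 4 control libraries and both D1 libraries of hybrid 89, a layout that 11.2% of all genes tested shared. For 5 of 5 genes, the D1 libraries of hybrid 85 together with the 4 D2 libraries lay below the other 6 libraries, which held for 5.47% of all genes tested.

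Within D1, limma called 5 of 5 genes higher in hybrid 89 than in hybrid 85 (background 4% called higher). The log2 difference was 4.13 ± 0.55 for CesA4 (limma, adjusted p = 0.00274) and 3.33 ± 0.44 for CesA8A (limma, adjusted p = 0.00263). It was 3.37 for CesA7A, 3.26 for CesA8B and 3.19 for CesA7B (limma, adjusted p = 0.0126, 0.00912 and 0.00663). Pooled reads put hybrid 85 at 3.43% of the hybrid 89 rate for CesA4 (95% exact counting interval 2.44% to 4.69%), and at 5.48% to 6.67% for the other 4 genes. That interval covers counting error and not the spread between plants. With groups of 2 plants, the count of 5 dropped to 2 when the D1 replicate 1 of hybrid 85 was left out, to 3 for its replicate 2, and to 2 for the D1 replicate 2 of hybrid 89.

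Against its own controls, hybrid 85 had 4 of 5 genes called lower in D1 (background 3.4%). CesA4 changed by -3.43 ± 0.55 (limma, adjusted p = 0.00837), CesA8B by -2.66 ± 0.58 (limma, adjusted p = 0.0242), CesA7B by -2.53 ± 0.53 (limma, adjusted p = 0.0208) and CesA8A by -1.72 ± 0.44 (limma, adjusted p = 0.0458). CesA7A was at -2.10 ± 0.64 and was not called (limma, adjusted p = 0.0831). The count of 4 dropped to 0 when the D1 replicate 1 was left out, and to 1 for the D1 replicate 2 or the control replicate 1. CesA8A also lost its call without most other single libraries.

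In hybrid 89 the log2 values for D1 against C were -0.61 to 0.37, and limma called 0 of 5 genes (adjusted p = 0.562 to 0.806; background 1.27% called lower). At an unadjusted p below 0.05 limma counted 5869 genes there, none of the 5 among them. The 95% intervals reached from -1.88 to 0.66 for CesA8B and from -0.61 to 1.35 for CesA8A. With 2 plants a group, changes anywhere within such intervals remain compatible with the values.

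The difference between hybrids in the D1 effect was tested directly. It was 2.88 ± 0.78 on the log2 scale for CesA4 (limma, unadjusted p = 0.00382, adjusted p = 0.14) and 1.78 to 2.19 for the other 4 (limma, adjusted p = 0.161 to 0.346). No gene of the 24117 tested passed the threshold for this difference, a background of 0%, while 4042 had an unadjusted p below 0.05. Limma-voom on the recovered reads also called 0 of the 5.

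Over both hybrids together, D1 against C gave log2 values of -1.99 for CesA4, -1.64 for CesA8B, -1.43 for CesA7B, -1.21 for CesA7A and -0.68 for CesA8A. Limma called 0 of 5 (adjusted p = 0.108 to 0.443; background 2.42% called lower), and 3 of the 5 had an unadjusted p below 0.05, as 5225 genes did. Without replicate 2 of hybrid 89 in D1, limma called CesA4 and CesA8B. Comparisons of D1 and of D2 with C share the same control libraries.

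From D1 to D2, limma called 5 of 5 genes lower over both hybrids (background 18.2%), with log2 changes of -3.53 ± 0.68 for CesA4 (adjusted p = 0.00158) down to -1.43 ± 0.48 for CesA8A (adjusted p = 0.0341). The call of CesA8A was lost without replicate 1 or 2 of hybrid 89 in D1 or in D2, and that of CesA7A without replicate 2 of hybrid 89 in D1. The D2 libraries lay below all D1 libraries for CesA4 and CesA8B (background 16.4%), and overlapped them for the other 3 genes, where D1 of hybrid 85 was already low. Within hybrid 89 the change was -5.48 to -2.64 and 5 of 5 were called (limma; background 19.2%). Within hybrid 85 it was -1.58 to -0.22 and 0 of 5 were called (limma, adjusted p = 0.0719 to 0.784; background 8.55%), though CesA4, CesA7B and CesA8B had an unadjusted p below 0.05, as 7752 genes did. With 0.1 or 0.5 RPKM added in place of 1, those 3 were called lower.

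Averaged over stages, hybrid 89 was above hybrid 85 by 1.48 to 1.87 on the log2 scale. Limma called CesA7B (1.83 ± 0.40, adjusted p = 0.029) and CesA8A (1.82 ± 0.39, adjusted p = 0.0258), 2 of 5 against a background of 0.974% called higher. The count dropped to 0 when the control replicate 1 of hybrid 89 or any single D1 library was left out, and to 1 for the control replicate 2 of hybrid 85. In C alone the difference was 1 to 1.59 and 0 of 5 were called (limma, adjusted p = 0.323 to 0.521; background 0.24%), with 3 of 5 and 2736 genes at an unadjusted p below 0.05. In D2 alone it was -0.04 to 1.29 and 0 of 5 were called (limma, adjusted p = 0.165 to 0.991; background 2.88%), with CesA7B and 5836 genes in all at an unadjusted p below 0.05.

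For each of the 5 genes, C and D1 of hybrid 89 and C of hybrid 85 had the 3 highest group means. For CesA4 the means were 79.4 RPKM in C of hybrid 89, 56.2 in D1 of hybrid 89, 36.9 in C of hybrid 85, 2.00 in D1 of hybrid 85, 0.177 in D2 of hybrid 89 and 0 in D2 of hybrid 85. The ranges of the first 3 groups overlapped with their neighbours, and the step from C to D1 of hybrid 85 did not. CesA7A had the same order of means, and the other 3 genes departed from it. For CesA8A, D1 of hybrid 89 (32.0 RPKM) had a higher mean than its controls (25.1 RPKM), with overlapping ranges, and D2 of hybrid 89 (4.14 RPKM) lay above D1 of hybrid 85 (2.19 RPKM). For CesA7B, D2 of hybrid 89 (1.56 RPKM) and D1 of hybrid 85 (1.49 RPKM) changed places, with overlapping ranges. For CesA8B, D2 of hybrid 85 (0.0727 RPKM) stood above D2 of hybrid 89 (0.0418 RPKM), on 1 read each.

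The make-up of the 5 transcripts shifted along with the level. CesA4 made up 36.9% to 37.7% of the sum in C, 30.9% to 33.5% in D1 of hybrid 89, 19.5% to 22.5% in D1 of hybrid 85 and 0% to 3.23% in D2. The share of CesA8A ran from 9.77% to 13.3% among controls, from 17.1% to 25.4% under D1 and from 49.9% to 75.0% under D2. The D2 shares rest on few reads, since the sum there was 2.51 and 2.41 RPKM in hybrid 85 and 8.43 and 5.78 RPKM in hybrid 89. In D1 the sum was 9.25 and 9.75 RPKM in hybrid 85 but 107 and 237 RPKM in hybrid 89.

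**Figure D3:**
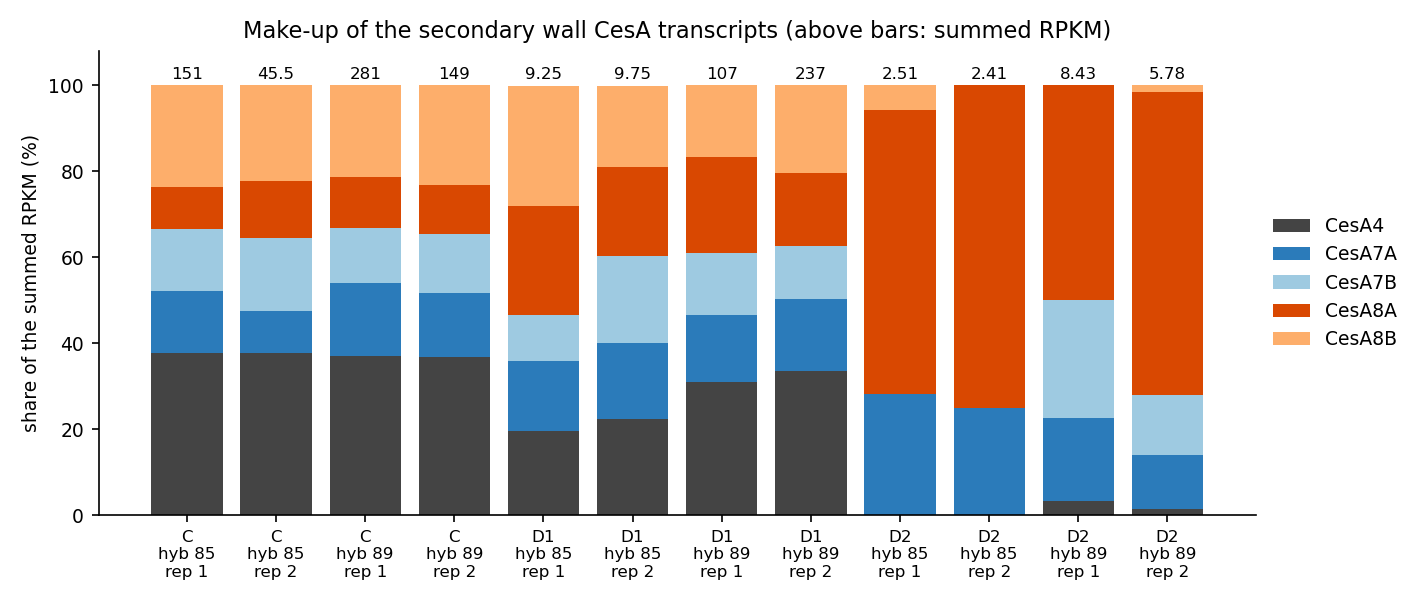
Share of each gene, in percent, in the summed RPKM of the 5 genes in each library, with the summed RPKM written above each bar. CesA4 held 36.9% to 37.7% in every control library, and CesA8A held 49.9% to 75.0% in D2.

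The balance of the class 8 copies was compared within libraries, as the log2 ratio of CesA8A to CesA8B per base. It was -0.98 ± 0.23 (SD, n = 4) in C and 0.03 ± 0.29 in D1, a difference of 1.01 ± 0.18 (SE; exact two-sided permutation test, p = 0.0286, adjusted over 12 tests p = 0.0381). All 4 D1 libraries, from both hybrids, lay above all 4 control libraries. The ratio was 4.79 ± 1.26 in D2, higher than in C by 5.76 and than in D1 by 4.75 (exact permutation tests, p = 0.0286 each, adjusted p = 0.0381). For comparisons with D2, 0.5 reads were added to each gene because CesA8B had 0 reads in 2 libraries, so the size of these differences depends on that addition. The value 0.0286 is the smallest p that 4 libraries against 4 can give.

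The class 7 copies gave another picture. The log2 ratio of CesA7A to CesA7B was -0.06 ± 0.51 in C and 0.24 ± 0.37 in D1, a difference of 0.30 ± 0.31 (exact permutation test, p = 0.429). In D2 it was 1.38 ± 1.98, and neither the difference from C (1.44 ± 1.02, exact permutation p = 0.314) nor that from D1 (1.16 ± 1, exact permutation p = 0.4) passed. In D2 both libraries of hybrid 89 were below 0. Both of hybrid 85 were above every other library, but there CesA7B had 0 reads against 5 and 6 of CesA7A, so the size of the ratio is set by the 0.5 reads added.

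Set against CesA4, which has no second copy among the 5, both other classes gained. The log2 ratio of CesA7A plus CesA7B to CesA4 was higher in D1 than in C by 0.63 ± 0.22, and that of CesA8A plus CesA8B to CesA4 by 0.81 ± 0.29 (exact permutation tests, p = 0.0286 each, adjusted p = 0.0381). The D1 values were larger in hybrid 85. For class 7 they were 0.47 and 0.75 there, -0.03 and -0.21 in hybrid 89, and -0.49 to -0.31 in C. For class 8 they were 1.45 and 0.82 in hybrid 85, 0.33 and 0.16 in hybrid 89, and -0.17 to -0.08 in C. In D2 the same ratios exceeded those of C by 4.10 ± 0.07 and 4.83 ± 0.36 (exact permutation tests, p = 0.0286 each, adjusted p = 0.0381). CesA4 had 0 to 2 reads per D2 library, so these last sizes and their SEs also depend on the 0.5 reads added. The SE of 0.07 should therefore not be read as a precision between plants.

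**Figure D4:**
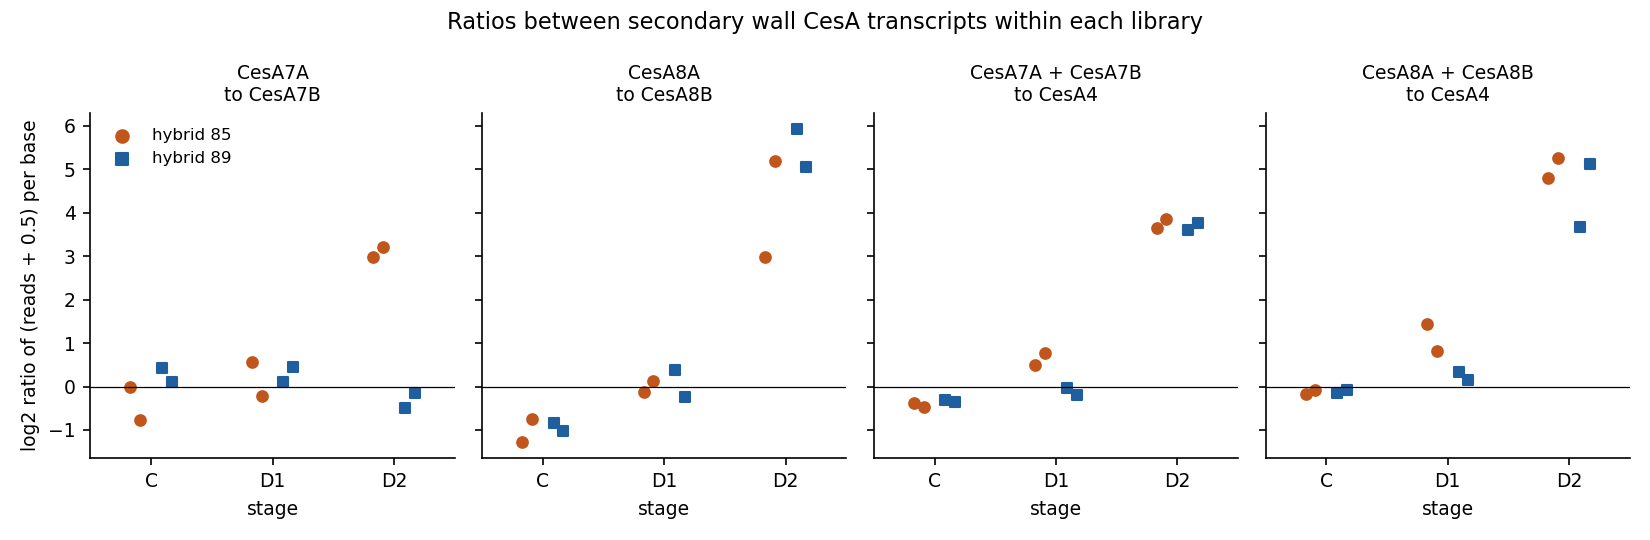
Log2 ratio of reads per base, with 0.5 reads added to each gene, between copies or classes in each library by stage, with circles for hybrid 85 and squares for hybrid 89. The ratio of CesA8A to CesA8B rose from a mean of -0.98 in C to 4.79 in D2, and that of CesA7A to CesA7B was highest in the D2 libraries of hybrid 85, where CesA7B had 0 reads.

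The 5 genes followed each other closely over the 12 libraries, which share the same stages and plants, so these correlations are a description. Pearson's r of log2(RPKM + 1) was 0.996 for CesA4 with CesA8B, and each was among the 2 genes most like the other of 24116. For CesA7A with CesA7B r was 0.977. CesA8A was less like its own copy CesA8B (r = 0.904, rank 116 of 24116 genes) than like CesA7A (r = 0.966, rank 1).

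Of the 24112 other genes tested, 215 (0.892%) had r above 0.9 with the mean profile of the 5 and 79 had r above 0.95. The closest were Potri.008G073300.1 (r = 0.995) and Potri.014G139900.1 (r = 0.992), on chromosome numbers 8 and 14. Potri.008G073300.1 had group means of 6.43 and 14.9 RPKM in C, 0.716 and 11.5 RPKM in D1 and 0 and 0 RPKM in D2 for hybrids 85 and 89. Potri.014G139900.1 had 24.7 and 62.5, 3.69 and 48.0, and 0.942 and 1.07 RPKM in the same order. They were chosen for this likeness, so their pattern is no separate result.

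Genes with neighbouring ID numbers changed by less in D2. Of the 20 IDs next to the 5 loci, taking 2 on each side, 14 were tested. Limma called 5 of the 14 lower and 2 higher in D2 than in C, against backgrounds of 19.2% lower and 21.6% higher. The log2 changes of the 14 were -1.35 to 1.90, smaller falls than that of any of the 5 cellulose synthases. Among all genes tested, only 6.32% had a lower change than CesA8A, so smaller falls are usual for any gene.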

How the data were processed

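TruSeq libraries were prepared from leaf RNA of 12 plants, per the labels' protocols. The authors deposited RPKM values per library, per the file headers. The submitters' processing notes name Trimmomatic 0.32. Not given in the sources used here: which aligner, build and annotation were used, and how strand and reads with several matches were treated. The authors' stage means (3 columns) were not used.

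Each value above 0 was a whole number of reads (100.0% of 321994 values, tolerance 0.01 reads) times what 1 read is worth, which gave reads, library totals and gene lengths. The length used for each gene was the shortest tried that made its values whole. For genes read in few libraries, that share of whole values is therefore partly set in advance. Of 16849 well-read genes checked, 100.0% had lengths that were multiples of 3, so they are coding lengths. Totals from 2259634 to 10509089 reads limit the precision of low values.

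Genes were tested when 4 or more libraries had 1 RPKM or more (24117 genes). Their log2(RPKM + 1) was fitted with limma 3.58.1 in R 4.3.3, with stage and hybrid as terms, a trended variance and Benjamini-Hochberg adjusted p below 0.05 over all genes. Fold changes on this scale understate the change of low genes. Differences between hybrids in the drought effect came from a model with 6 groups. Comparisons within 1 hybrid or 1 stage came from the same model and were added after values had been seen. The recovery and the limma fit were also run on simulated data. The counts simulated for limma held no difference between hybrids and the same spread for all genes. They therefore do not show how the fit performs with the spread between these plants. Ratios between genes were compared by exact two-sided permutation tests over libraries (scipy 1.17.1). The addition of 0.5 reads for ratios with D2 was chosen after values had been seen.

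The rule was to name the 5 members and the 10 other genes whose log2 values correlated best with their mean profile. Only the first 2 of those 10 are named here. The members and lists were chosen with earlier results of these data known. Planned lists of other cell wall genes, regulators and cell type markers could not be matched to the IDs and were not tested, and no sequence or annotation was used. The alternatives were other pseudocounts, filters, scalings, covariates and variance models, limma-voom on the recovered reads, a replicate block, and each library left out.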

Additional observations from a re-analysis of the deposited data

Results flagged for a closer look

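The log2(RPKM + 1) of CesA7A in replicate 1 of hybrid 89 in D2 was 1.40, farther from the other 3 D2 libraries than Dixon's 95% limit allows. It rests on 12 reads. It was 1 of 25 groups of values tested, and chance gives about 1 such value in 20 groups.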

How the results depend on the processing

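The fall of all 5 genes in D2 against C was called under every alternative run, each library left out included. Other calls moved. In D2 against D1, 3 of 5 genes were called without the hybrid term, and CesA8A missed the threshold without a filter, with quantile normalization and with the block. For hybrid 89 against 85 over all stages, 1 gene was called without a filter, 0 without the stage term and 5 with limma-voom; over all genes, the count was 455 with a filter of 5 RPKM and 148 without the stage term. For the difference in D1 effect, 3 genes of all were called without a filter and 32 with quantile normalization. For the difference in D2 effect, the count over all genes was 37 and 43 with pseudocounts of 0.1 and 0.5 RPKM, 224 without a filter, 58 with quantile normalization, 61 with median-ratio scaling, 13 with only the stages compared and 71 with limma-voom. Within hybrid 85, D2 against D1 gave 3 of 5 with either pseudocount and 1 with limma-voom. In C, hybrid 89 against 85 gave 85 genes with a pseudocount of 0.1 and 78 with the 5 RPKM filter, and in D2 it gave 1 of the 5 with a pseudocount of 0.1.

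Replicate numbers did not pair the plants: deviations of same-numbered libraries of a hybrid correlated at -0.04 to 0.08. With a replicate block, 5 of 5 genes were still called in D2 against C, 4 in D2 against D1 and 3 in D1 against C of hybrid 85. With the block, the count over all genes was 37 for the difference in D2 effect. Within a stage, the blocked fit took hybrid 89 against 85 at the level of replicate 1, not averaged over replicates. Its counts over all genes, 27 in C and 664 in D2, and its CesA4 value of -0.03 in D2 are therefore not comparable with the main fit.

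Reversals were of uncalled values, among them the CesA4 difference in D2 effect, which was -1.01 ± 0.78 in the main fit. CesA4 had 0 to 2 reads in each D2 library. The difference in D2 effect became 0.10 (pseudocount 0.1) and 0.41 (limma-voom) for CesA4, and with a library left out -0.41, -0.10 and -0.15 for CesA7B (range -0.41 to 0.98) and 0.25 and 0.14 for CesA8A (range -0.90 to 0.25). In D1 against C of hybrid 89 leaving out a library gave 0.22 and 0.28 for CesA7A (range -0.92 to 0.28), 0.05 and 0.09 for CesA7B (-0.76 to 0.09), -0.10 and 0 for CesA8A (-0.10 to 0.83), and 0.07 each for CesA4 (-1.16 to 0.07) and CesA8B (-1.29 to 0.07). In D2, hybrid 89 against 85 gave 0.06 and 0.02 for CesA8B (range -0.14 to 0.06). The cause was not tested.

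With each library left out, the members called were 0 to 2 in D1 against C, 3 to 5 in D2 against D1, 0 to 2 for hybrid 89 against 85, 0 to 4 in D1 against C of hybrid 85, 3 to 5 in D2 against C of hybrid 85, 0 to 2 in D2 against D1 of hybrid 85, and 2 to 5 for hybrid 89 against 85 in D1. Over all genes the ranges were 678 to 2130 in D1 against C, 8402 to 9634 in D2 against C, 6379 to 8353 in D2 against D1, and 339 to 729 for hybrid 89 against 85. They were 0 to 128 for the difference in D1 effect and 0 to 2470 for that in D2 effect. In hybrid 85 they were 79 to 2151 (D1 against C), 3606 to 7778 (D2 against C) and 1967 to 5788 (D2 against D1), and in hybrid 89 150 to 2380, 6396 to 9715 and 5108 to 8902. Between the hybrids they were 23 to 208 among controls, 248 to 2567 for D1 and 70 to 4068 for D2.

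Ratios compared with 3 libraries against 4 cannot give an exact p below 0.0571, so only their sizes were read. In the order D1 against C, D2 against C and D2 against D1, CesA8A to CesA8B gave 0.89 to 1.11, 5.38 to 6.36 and 4.37 to 5.35. Class 7 to CesA4 gave 0.47 to 0.78, 4.05 to 4.13 and 3.30 to 3.62. Class 8 to CesA4 gave 0.56 to 0.99, 4.65 to 5.18 and 3.84 to 4.37. CesA7A to CesA7B gave 0.06 to 0.46, 0.83 to 2.07 and 0.55 to 1.78.

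The main limits are 2 plants for each stage and hybrid, D2 levels of 0 to 47 reads, and no check of leaf markers.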
